A study of Mus musculus with 97 samples.

Results

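The predicted mouse genes Gm10265, Gm52523 and Gm40755 gave a larger share of the probe signal in cortex than in hippocampus. They are 3 of 19962 genes on the panel and 3 of its 521 predicted genes, and they were chosen because their share of the signal was larger in cortex over all 12 groups of libraries. The regional difference is therefore given as a description with no test. The tests concern genotype and treatment within each region, a contrast that the rule did not use, although earlier results of these data were known when the genes were chosen.

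A symbol of Gm and a number is given to a predicted gene, a gene model that an annotation pipeline places on the genome and for which no function has been established. The models can be coding or noncoding, and a probe against one measures only the transcript stretch it hybridises to. The cortex is a layered sheet of excitatory and inhibitory neurons with glia, and the hippocampus packs its principal neurons into dense cell layers, so a captured region of either holds many cell types. In such bulk regions, fewer cells of a type and less RNA per cell cannot be told apart.

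The libraries came from brain sections of 8 µm of older mice, in which human APOE4 or human APOE3 replaces the mouse gene for apolipoprotein E, the main lipid carrier of the brain. Signal was read with the GeoMx Digital Spatial Profiler, which releases the sequenced tags of hybridised probes from a chosen area by ultraviolet light, and the panel was the mouse Whole Transcriptome Atlas. Mice of each genotype received DD, DC or vehicle by injection into the peritoneum, 2 times per week for 2 weeks. DD was doxorubicin at 3 mg/kg with docetaxel at 10 mg/kg per week, DC was doxorubicin at 3 mg/kg with cyclophosphamide at 40 mg/kg per week, and vehicle was a mixture of DMSO and PBS. Doxorubicin poisons topoisomerase II, docetaxel stabilises microtubules and cyclophosphamide alkylates DNA. The 12 groups were APOE4 with DD, DC or vehicle and APOE3 with DD, DC or vehicle, each in cortex and in hippocampus, with 8 libraries a group and 9 in APOE3 DD cortex, 97 in all. The labels tie no captured region to an animal, so for each test given here the p-value is too small wherever 1 animal gave several regions. In the library names each genotype had a plate of its own, so genotype and plate cannot be told apart.

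Total counts per library ran between 21568 and 1850582, with medians of 61380 in APOE4 and 30579 in APOE3 libraries. The lowest value was 1 in 94 of 97 libraries, so each of the 19962 genes adds at least 1 count to those totals. A ratio of totals therefore understates a difference in signal above that floor. The negative probe, a pool of sequences without a target that reads background, had a median of 2.68 in APOE4 and 1.27 in APOE3 libraries. It stood at 5 or more in 13 of 97 libraries, all of them APOE4, including 6 of 8 in APOE4 DC hippocampus, 4 in APOE4 DC cortex, 2 in APOE4 DD cortex and 1 in APOE4 DD hippocampus. After a filter on low counts, 57 cortex genes and 38 hippocampus genes could be tested, of which 37 are shared. All 3 predicted genes passed in both regions. The regional labels could not be checked by cell type: of the markers listed for cortex and hippocampus neurons, inhibitory neurons, astrocytes, oligodendrocytes, microglia, endothelial cells and choroid plexus, 0 passed the filter in either region, and the highest, Slc17a7, the vesicular glutamate transporter, reached a cortex median of 1.85 times the negative probe.

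In RefSeq's annotation of GRCm38.p6, the assembly also called mm10, Gm52523 and Gm40755 are protein-coding models. Gm52523 lies on the minus strand of chromosome 2 at 112228823 to 112240063, a span of 11241 bases. Its start overlaps that of Lpcat4, a lysophospholipid acyltransferase on the plus strand (chromosome 2, 112239841 to 112247111), by 223 bases. Gm40755 lies on the minus strand of chromosome 10 at 108322372 to 108333003, a span of 10632 bases, and overlaps Pawr, a gene of a pro-apoptotic regulator on the plus strand (chromosome 10, 108332189 to 108414391), by 815 bases. The neighbours' own probes read near background: relative to the negative probe, Lpcat4 had a cortex median of 0.885 and a hippocampus median of 0.977, and Pawr had 0.936 and 0.895.

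The promoters of the 2 annotated models are shown because each start lies inside an overlap with a gene of the other strand. They span 250 bases before and 50 after the start, from RefSeq on GRCm38.p6, 5′ to 3′ on the gene's strand (minus), at chr2:112240014-112240313 for Gm52523 and chr10:108332954-108333253 for Gm40755, with each CG dinucleotide in capitals.
Gm52523: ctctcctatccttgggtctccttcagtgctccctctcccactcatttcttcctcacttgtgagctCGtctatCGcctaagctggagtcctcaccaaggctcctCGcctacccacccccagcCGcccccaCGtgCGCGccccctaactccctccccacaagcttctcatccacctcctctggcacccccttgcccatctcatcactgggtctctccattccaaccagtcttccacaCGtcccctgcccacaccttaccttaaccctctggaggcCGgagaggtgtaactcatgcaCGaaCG
Gm40755: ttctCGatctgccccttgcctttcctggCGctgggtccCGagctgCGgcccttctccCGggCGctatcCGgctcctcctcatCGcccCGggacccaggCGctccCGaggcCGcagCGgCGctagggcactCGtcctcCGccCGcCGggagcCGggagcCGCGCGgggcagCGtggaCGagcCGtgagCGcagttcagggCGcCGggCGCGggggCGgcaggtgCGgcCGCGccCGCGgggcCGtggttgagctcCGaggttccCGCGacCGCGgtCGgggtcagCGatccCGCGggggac
The Gm40755 promoter was 77.7% G and C with 46 CG dinucleotides, and 2.08% of 32851 promoters of this length had as high a GC content and 1.65% as many CG. The Gm52523 promoter was less extreme, at 60.0% and 11 CG, levels reached by 29.5% and 41.4% of promoters. The median promoter had 52.7% and 7. Neither held TATAAA, which 13.6% of promoters hold on either strand, or CCAAT, which 37.4% hold. Both held GGGCGG, as 35.7% of promoters do. These matches describe the letters and no binding was measured.

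The 3 genes differed in depth of signal. Gm10265 was counted between 21 and 1759 times per library (median 210) and Gm52523 between 18 and 1000 times (median 121), and both stood above 2 times the negative probe in 97 of 97 libraries. Gm40755 was counted between 1 and 185 times (median 24). It exceeded the negative probe in 96 libraries and 2 times the negative probe in 90, and had 3 counts or fewer in 3 hippocampus libraries, so its low values carry the largest counting error. Since each gene is read by its own probe, a higher count of one gene than of another is not read as a higher level, and ratios of their counts serve only to follow the genes across libraries.

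Across all libraries, Gm10265 took 14.3% ± 3.25 of the counts of the 37 genes in cortex (SD, n = 49) and 5.16% ± 1.51 in hippocampus (SD, n = 48), a ratio of 2.77. Within the 6 pairs of one genotype and treatment the ratio ran between 2.35 in APOE3 DC and 3.44 in APOE4 DC. On this scale the regions did not overlap in 5 of 6 pairs. The exception was APOE3 DC, where the cortex libraries lay between 9.18% and 20.4% and the hippocampus libraries between 3.04% and 9.78%.

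Gm52523 took 8.06% ± 1.78 in cortex (SD, n = 49) and 2.76% ± 0.706 in hippocampus (SD, n = 48), a ratio of 2.92. By share its regions did not overlap in 6 of 6 pairs. On the same scale 48 of 49 cortex libraries exceeded every hippocampus library of any group. This count changed with the divisor, as given below. Gm52523 was chosen by its share, and this separation was not counted over the other genes tested. Its ratio again was lowest in APOE3 DC, at 2.35, and highest in APOE4 DC, at 3.51.

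Gm40755 took 1.49% ± 0.348 in cortex (SD, n = 49) and 0.581% ± 0.286 in hippocampus (SD, n = 48), a ratio of 2.56. Its ratio ran between 1.84 in APOE4 DC and 3.83 in APOE3 vehicle, so the order of the pairs was not that of the other 2 genes. The regions did not overlap in 4 of 6 pairs. In APOE4 DC the hippocampus libraries reached 1.73%, above 7 of the 8 cortex libraries. The 2 hippocampus libraries with the highest Gm40755 shares, 1.73% and 1.35%, had the highest negative probe values of their group, 38.8 and 93.1, where Gm40755 stood at 1.18 and 1.46 times that probe; the part of background in these shares was not tested.

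The size of the regional ratio depended on what the counts were divided by, and its direction did not in any of the 6 pairs. Mtch2, which encodes an outer mitochondrial membrane protein, took 24.7% of the counts in cortex and 44.9% in hippocampus. With Mtch2 left out of the divisor, the ratios ran between 1.75 and 2.71 for Gm10265, 1.73 and 2.80 for Gm52523, and 1.49 and 2.54 for Gm40755. Divided by the negative probe, they ran between 2.25 and 8.89, 2.52 and 9.76, and 3.08 and 6.34. The separation depended on the divisor also. Over the negative probe or by share of the total count, the regions did not overlap in 2 of 6 pairs for each gene of the 3. For Gm52523, cortex libraries above every hippocampus library numbered 49 of 49 by share without Mtch2 and 42 of 49 by share of the total count. They numbered 38 of 49 over the negative probe and 24 of 49 by share of the counts above 1.

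**Figure D1:**
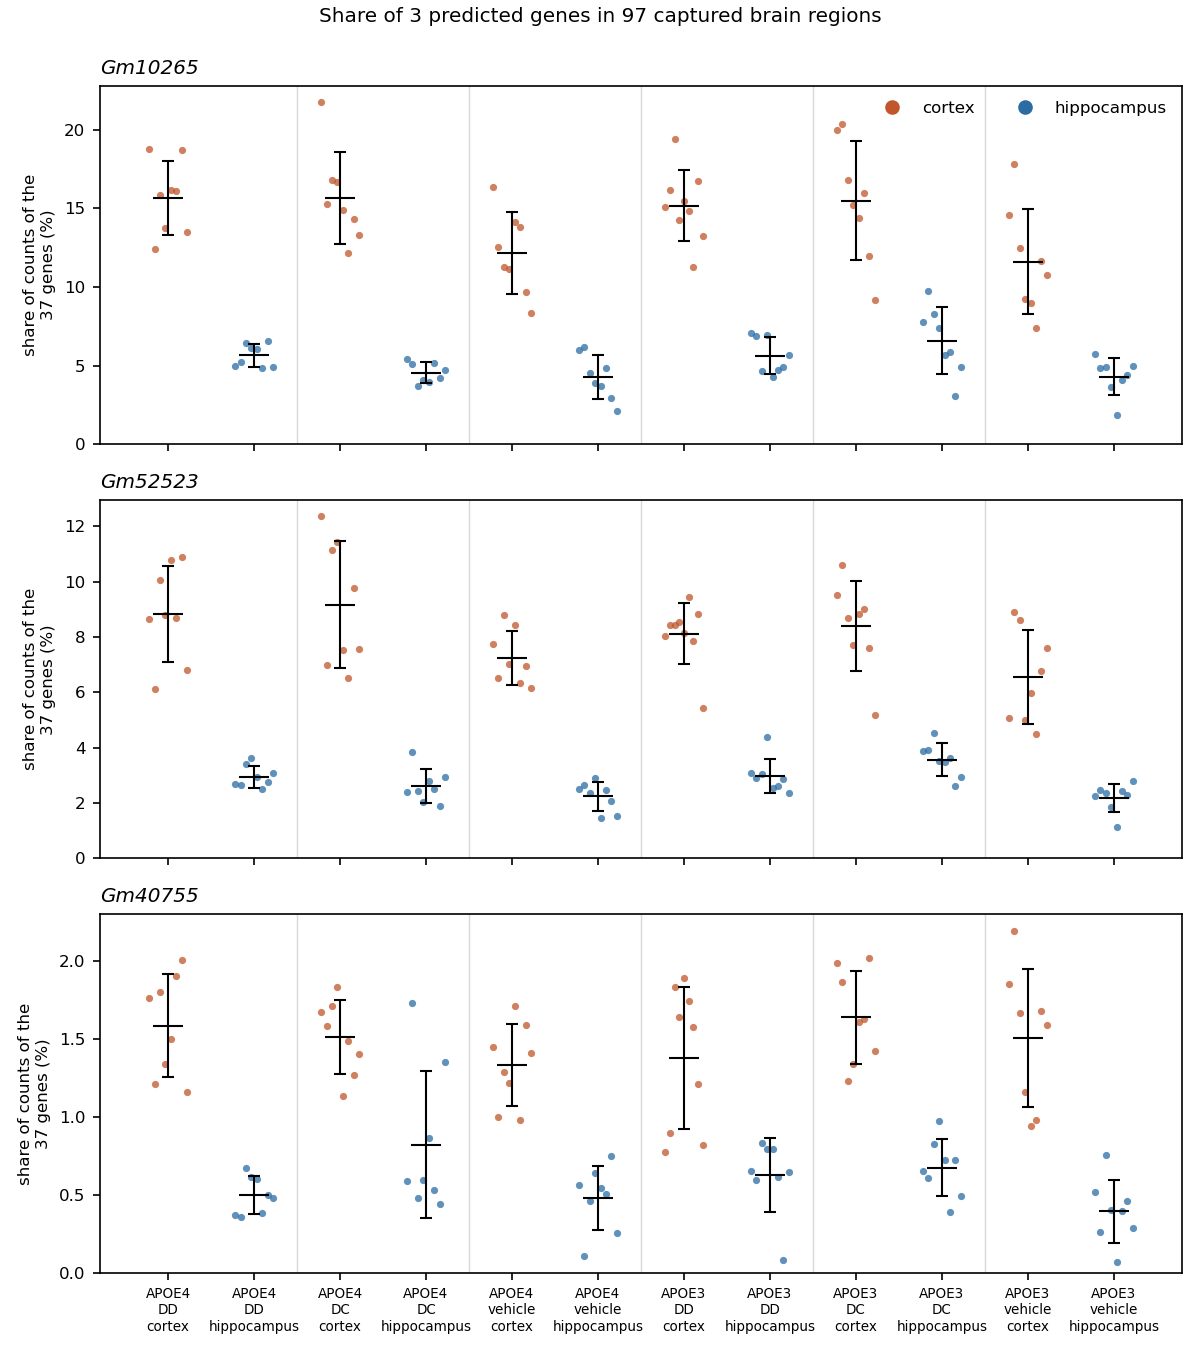
Share of the counts of the 37 genes (percent, vertical axis) for each of the 3 predicted genes in every library, by genotype, treatment and region; points are libraries, black bars the mean and SD of 8 libraries (9 in APOE3 DD cortex). Cortex groups lie above their hippocampus partners, by mean, with no overlap of these shares in 5, 6 and 4 of 6 pairs for Gm10265, Gm52523 and Gm40755. Such pairs were not counted over all 37 genes.

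In cortex the group means of Gm10265 were 15.7% ± 2.33 in APOE4 DD, 15.7% ± 2.93 in APOE4 DC and 12.2% ± 2.60 in APOE4 vehicle (SD, n = 8 each). In APOE3 cortex they were 15.2% ± 2.27 in DD (SD, n = 9), 15.5% ± 3.77 in DC and 11.6% ± 3.36 in vehicle (SD, n = 8 each). Both vehicle groups were the lowest of their genotype, with ranges that overlapped those of the treated groups. Mtch2 moved the other way in the same libraries, at 19.7%, 19.8% and 28.2% in APOE4 DD, DC and vehicle cortex and 24.2%, 20.2% and 36.3% in APOE3 DD, DC and vehicle cortex.

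Gm52523 followed this order in cortex, with 8.85% ± 1.73, 9.17% ± 2.29 and 7.25% ± 0.983 in APOE4 DD, DC and vehicle (SD, n = 8 each). In APOE3 cortex it had 8.12% ± 1.12 in DD (SD, n = 9), 8.40% ± 1.61 in DC and 6.56% ± 1.70 in vehicle (SD, n = 8 each). Gm40755 did not: its cortex means ran between 1.33% in APOE4 vehicle and 1.64% in APOE3 DC, and its APOE3 DD mean of 1.37% ± 0.454 (SD, n = 9) lay below that of APOE3 vehicle, 1.50% ± 0.441 (SD, n = 8).

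In hippocampus the highest group means of Gm10265 and Gm52523 were both in APOE3 DC, at 6.59% ± 2.13 and 3.57% ± 0.598 (SD, n = 8). DD hippocampus came next, with 5.65% ± 0.720 in APOE4 and 5.64% ± 1.17 in APOE3 for Gm10265, and 2.96% ± 0.400 and 2.98% ± 0.623 for Gm52523 (SD, n = 8 each). The 2 genotypes did not differ beyond their spread under DD or vehicle on this scale: vehicle libraries had 4.27% ± 1.40 in APOE4 and 4.30% ± 1.18 in APOE3 for Gm10265, and 2.25% ± 0.520 and 2.20% ± 0.505 for Gm52523 (SD, n = 8 each).

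Treatment and genotype were tested in one edgeR quasi-likelihood fit per region with TMM scaling, which sets the libraries to a common trimmed mean of the tested genes, and Benjamini-Hochberg adjustment over all genes tested at a threshold of 0.05. On this scale values are log2 CPM, relative to the region's tested genes. Of 66 tests of the 3 genes in 22 comparisons, 6 passed. Over all genes tested, the share that passed ran between 0.0% and 39.5% by comparison. The pooled count is therefore not read as a result about the 3 genes. All 6 were of Gm10265 or Gm52523 in hippocampus, and Gm40755 passed in 0 of its 22 tests in edgeR and in DESeq2 (2 of them, in edgeR, with an unadjusted p under 0.05, both APOE4 against APOE3).

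The largest of these differences was between genotypes under DC. In APOE4 DC hippocampus, Gm10265 had a lowest, median and highest level of 14.39, 15.19 and 15.51, against 15.28, 15.92 and 16.50 in APOE3 DC hippocampus. The ranges overlapped, and 8 of 8 APOE4 libraries lay below the APOE3 mean. Gm10265 was 1.79-fold lower in APOE4 (log2 -0.84, SE 0.15, edgeR adjusted p = 9.28e-06). Gm52523 had 13.96, 14.20 and 14.62 in APOE4 DC hippocampus, against 14.61, 15.12 and 15.29 in APOE3 DC hippocampus, so that the highest APOE4 library just exceeded the lowest APOE3 library. It was 1.77-fold lower in APOE4 (log2 -0.83, SE 0.11, edgeR adjusted p = 3.35e-08), again with 8 of 8 libraries below the APOE3 mean. In this comparison 21.1% of the 38 genes tested passed, and the median of all tested genes was -0.03. Gm40755 did not pass (log2 -0.11, 95% interval -0.63 to 0.40). The negative probe had medians of 10.9 in APOE4 DC and 1.26 in APOE3 DC hippocampus. Without the libraries at 5 or more, the values were -0.85 and -0.76 (adjusted p = 0.00279 and 0.000524). This left 2 libraries in APOE4 DC, from neighbouring wells and possibly of 1 animal, so these p-values carry little weight. With the negative probe subtracted they were -0.45 and -0.49 (adjusted p = 0.0149 and 0.00185), and without TMM -0.54 and -0.46 (adjusted p = 0.0176 and 0.0180). With no filter on low counts or with scaling to the negative probe, the differences kept their direction and no longer passed (adjusted p between 0.27 and 0.998).

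Under vehicle the genotype difference in hippocampus was smaller and rested on the scaling. Gm10265 had a lowest, median and highest level of 14.94, 15.41 and 15.73 in APOE4 vehicle hippocampus, against 15.45, 15.87 and 16.12 in APOE3 vehicle hippocampus. It was 1.37-fold lower in APOE4 (log2 -0.45, SE 0.15, edgeR adjusted p = 0.0118). Gm52523 had 13.99, 14.52 and 14.75 in APOE4 vehicle hippocampus, against 14.64, 14.89 and 15.23 in APOE3 vehicle hippocampus, and was 1.33-fold lower (log2 -0.41, SE 0.11, edgeR adjusted p = 0.00227). Both groups overlapped, and for each gene 8 of 8 APOE4 libraries lay below the APOE3 mean. This comparison had the highest background of all 22, with 39.5% of the 38 genes passing. Mtch2 took 45.1% of the counts in APOE4 vehicle and 58.8% in APOE3 vehicle hippocampus, and the TMM factors had medians of 0.990 and 0.749. With the sum of all tested counts as the scale and no TMM factor, the differences were 0.00 and 0.02, and with upper-quartile scaling -0.04 and -0.02, none of them passing. With Mtch2 left out of that sum they were -0.41 and -0.38, and both passed (adjusted p = 0.00919 and 0.00347). With Mtch2 left out and TMM kept, Gm10265 was at -0.34 and did not pass (adjusted p = 0.0688), and Gm52523 was at -0.29 (adjusted p = 0.0486). The Gm10265 difference passed in 6 of 13 alternative settings and was also lost with counts summed over neighbouring wells (adjusted p = 0.0891) and with only the 2 groups fitted (adjusted p = 0.0572). The Gm52523 difference passed in 9 of 13.

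Under DD the genotype difference in hippocampus did not pass for Gm10265 (log2 -0.17, 95% interval -0.45 to 0.12), Gm52523 (-0.18, -0.39 to 0.03) or Gm40755 (-0.55, -1.0 to -0.10, edgeR adjusted p = 0.202), where 7.89% of genes tested passed. In cortex 0 of 9 genotype tests of the 3 genes passed in edgeR and in DESeq2, 1 of them with an unadjusted p under 0.05. That was Gm40755 under vehicle (log2 -0.34, SE 0.17, adjusted p = 0.132), which passed with Mtch2 left out before scaling (-0.48, adjusted p = 0.0483) and without APOE4 vehicle cortex replicate 1 (-0.47). The background in cortex was 21.1% under DD, 24.6% under DC and 21.1% under vehicle. The DC difference in cortex was 0.00 for Gm10265 (95% interval -0.29 to 0.30) and 0.11 for Gm52523 (-0.17 to 0.40), and whether it differed from that in hippocampus was not tested.

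Between the 2 regimens, Gm10265 and Gm52523 were higher under DD in APOE4 hippocampus. Gm10265 had 15.50, 15.67 and 15.91 in APOE4 DD hippocampus (lowest, median and highest), against 14.39, 15.19 and 15.51 in APOE4 DC hippocampus, 1.53-fold higher (log2 0.61, SE 0.14, edgeR adjusted p = 0.00148). Gm52523 had 14.66, 14.74 and 14.86 in APOE4 DD hippocampus, against 13.96, 14.20 and 14.62 in APOE4 DC hippocampus, 1.44-fold higher (log2 0.53, SE 0.10, edgeR adjusted p = 0.000210). On this scale the Gm52523 groups did not overlap, and those of Gm10265 overlapped at 1 value on each side. For both genes 8 of 8 DD libraries lay above the DC mean. By share the Gm52523 groups did overlap, at 2.50% to 3.65% in DD and 1.88% to 3.86% in DC. The TMM factors had medians of 1.07 in APOE4 DD and 1.24 in APOE4 DC hippocampus, and reached 2.40 in the latter. How many of all tested genes did not overlap was not counted. Here 10.5% of the genes tested passed, which is 4 of 38 with both of these genes among them. Gm40755 did not pass and lay on the other side (log2 -0.28, 95% interval -0.68 to 0.13). In APOE4 DC hippocampus it stood between 1.18 and 10.4 times the negative probe. Its value was 1.16 with scaling to that probe (edgeR adjusted p = 0.00858) and 0.10 with the probe subtracted (adjusted p = 0.969), so its side rests on the handling of background.

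The DC group of this comparison is the one with 6 of 8 negative probe values at 5 or more, and its median of 10.9 stood against 2.47 in APOE4 DD hippocampus. Without those libraries the values were 0.63 and 0.44 and did not pass (adjusted p = 0.172 and 0.175), with 2 DC libraries of neighbouring wells left. With the negative probe subtracted from each count they were 0.20 and 0.17 (adjusted p = 0.567 for both), and without TMM 0.32 and 0.19 (adjusted p = 0.128 and 0.287). Without TMM and with Mtch2 out of the sum they were 0.43 and 0.33, and both passed (adjusted p = 0.0134 each). With scaling to the negative probe, which was higher in the DC group, they were 1.62 and 1.59, and both passed (adjusted p = 0.00156 each). In APOE3 hippocampus the same comparison gave -0.06 for Gm10265 (95% interval -0.36 to 0.23) and -0.12 for Gm52523 (-0.35 to 0.11), with 0.0% of genes passing. In cortex 0 of 6 tests passed in edgeR and in DESeq2, 0 of them with an unadjusted p under 0.05, and the background was 0.0% in both genotypes.

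Against vehicle, no regimen changed the 3 genes past the threshold in the edgeR fit with TMM. In edgeR 0 of 12 tests passed for DD and 0 of 12 for DC, with 2 of each at an unadjusted p under 0.05, and DESeq2 passed 0 for DD and 2 for DC, Gm10265 (-0.36) and Gm52523 (-0.33) in APOE4 hippocampus. The 24 log2 values ran between -0.32 and 0.32, and their 95% intervals between -0.60 and 0.81. All 4 unadjusted hits were in APOE4 hippocampus, where with TMM in edgeR the regimens lay on opposite sides of vehicle. For DD, Gm10265 was at 0.29 (95% interval 0.01 to 0.57, adjusted p = 0.172) and Gm52523 at 0.26 (0.05 to 0.47, adjusted p = 0.111). For DC, Gm10265 was at -0.32 (-0.60 to -0.03, adjusted p = 0.0760) and Gm52523 at -0.27 (-0.48 to -0.06, adjusted p = 0.0526). Both rest on the same vehicle libraries. The DC values changed sign in 2 of 13 alternative settings for each gene. They were 0.09 and 0.21 without TMM on the sum of all tested counts, and 0.07 and 0.06 with the negative probe subtracted. With scaling to the negative probe they were -1.10 and -1.06, and both passed (edgeR adjusted p = 0.0348 each). By mean share Gm10265 had 4.55% in APOE4 DC and 4.27% in APOE4 vehicle hippocampus, and Gm52523 had 2.61% and 2.25%. The negative probe stood at 5 or more in 6 of 8 APOE4 DC hippocampus libraries. In APOE3 hippocampus the 2 genes lay between 0.01 and 0.15 under either regimen. Without TMM, DC against vehicle in APOE3 hippocampus passed for Gm10265 (0.63, adjusted p = 0.00446) and Gm52523 (0.70, adjusted p = 0.000820), and with Mtch2 also left out of the sum it did not (0.11 and 0.18). Mtch2 took 40.6% of the counts in APOE3 DC and 58.8% in APOE3 vehicle hippocampus.

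The background of these comparisons varied. In hippocampus DD against vehicle passed 5.26% of genes in APOE4 and 2.63% in APOE3, and DC against vehicle 21.1% in each genotype. In cortex DD against vehicle passed 12.3% in APOE4 and 3.51% in APOE3, and DC against vehicle 1.75% in APOE4 and 12.3% in APOE3. The cortex values of Gm10265 lay between 0.09 and 0.23, those of Gm52523 between 0.02 and 0.21 and those of Gm40755 between -0.26 and 0.08. Without libraries at a negative probe of 5 or more, DC in APOE4 passed in edgeR for Gm10265 (0.47, adjusted p = 0.0396) and Gm52523 (0.46, adjusted p = 0.0224). Without TMM on the sum of all tested counts, DC in APOE3 passed for Gm10265 (0.40, adjusted p = 0.0397). Each of these passed in 1 of 13 alternative settings. Mtch2 passed as lower in 3 of the 4 cortex comparisons, at -0.71 under DD in APOE4, -0.87 under DD in APOE3 and -1.18 under DC in APOE3 (log2, edgeR adjusted p = 0.0366, 0.00450 and 0.000137). In the other, DC in APOE4, it was at -0.70 and did not pass (adjusted p = 0.0639). The higher mean shares of Gm10265 and Gm52523 in treated cortex were thus measured beside lower mean shares of Mtch2, whose part in them was not tested.

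**Figure D2:**
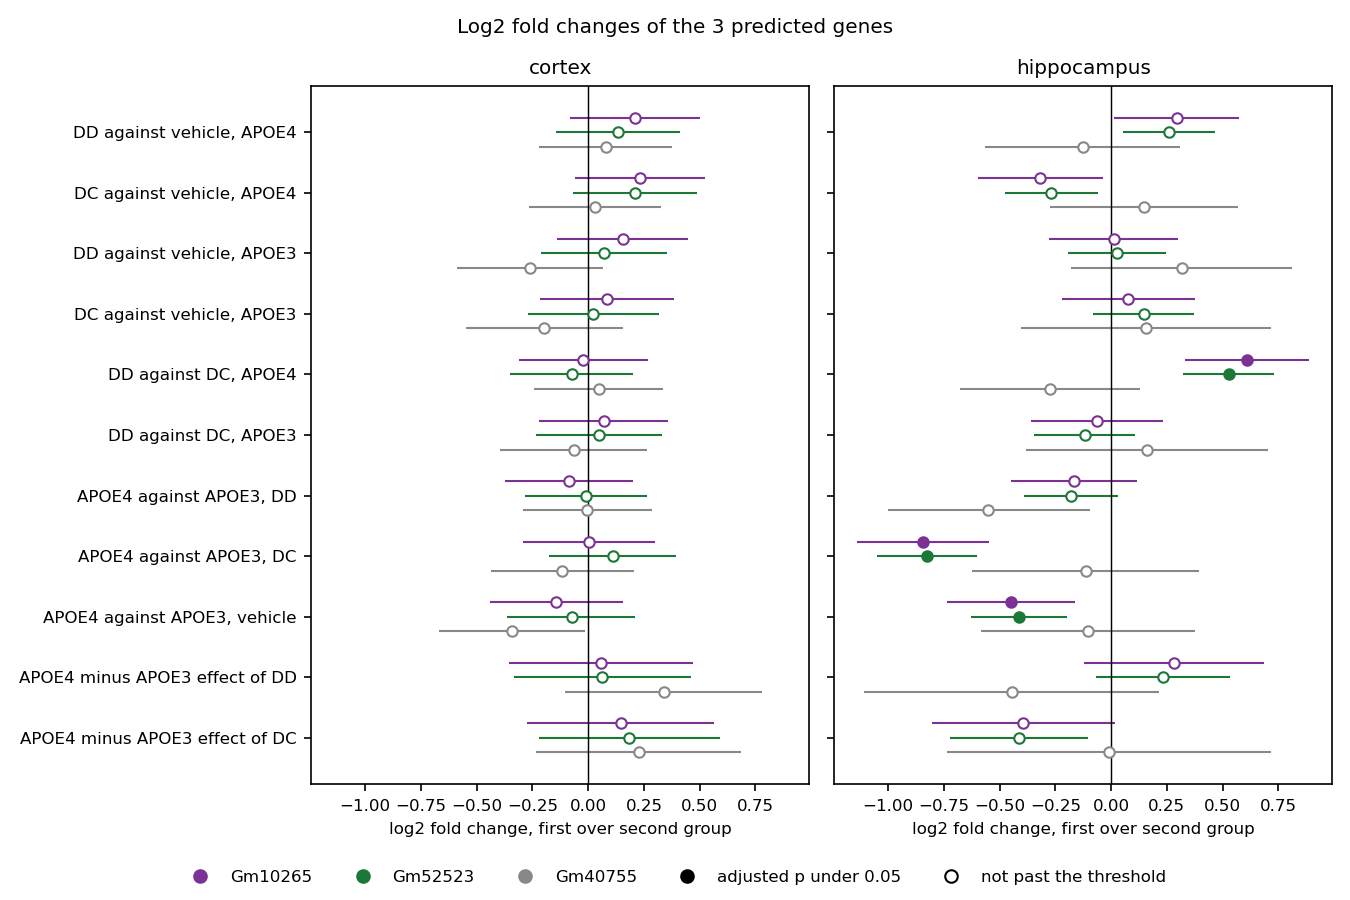
Log2 fold changes of the 3 genes with 95% intervals in 11 comparisons in cortex (left) and hippocampus (right), the first-named group over the second; filled points passed the adjusted threshold. Only Gm10265 and Gm52523 in hippocampus have filled points, 3 comparisons each.

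Whether a regimen's effect differed between genotypes was tested as an interaction, and 0 of 12 tests passed in edgeR and in DESeq2, 1 with an unadjusted p under 0.05. That was Gm52523 for DC in hippocampus, where the APOE4 effect minus the APOE3 effect was -0.41 (SE 0.16, adjusted p = 0.0913), beside -0.39 for Gm10265 (SE 0.21, adjusted p = 0.209). The background was 5.26% for DC and 0.0% for DD in hippocampus, and 3.51% for DC and 0.0% for DD in cortex. So the genotype difference under DC is not shown to differ from that under vehicle.

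**Figure D3:**
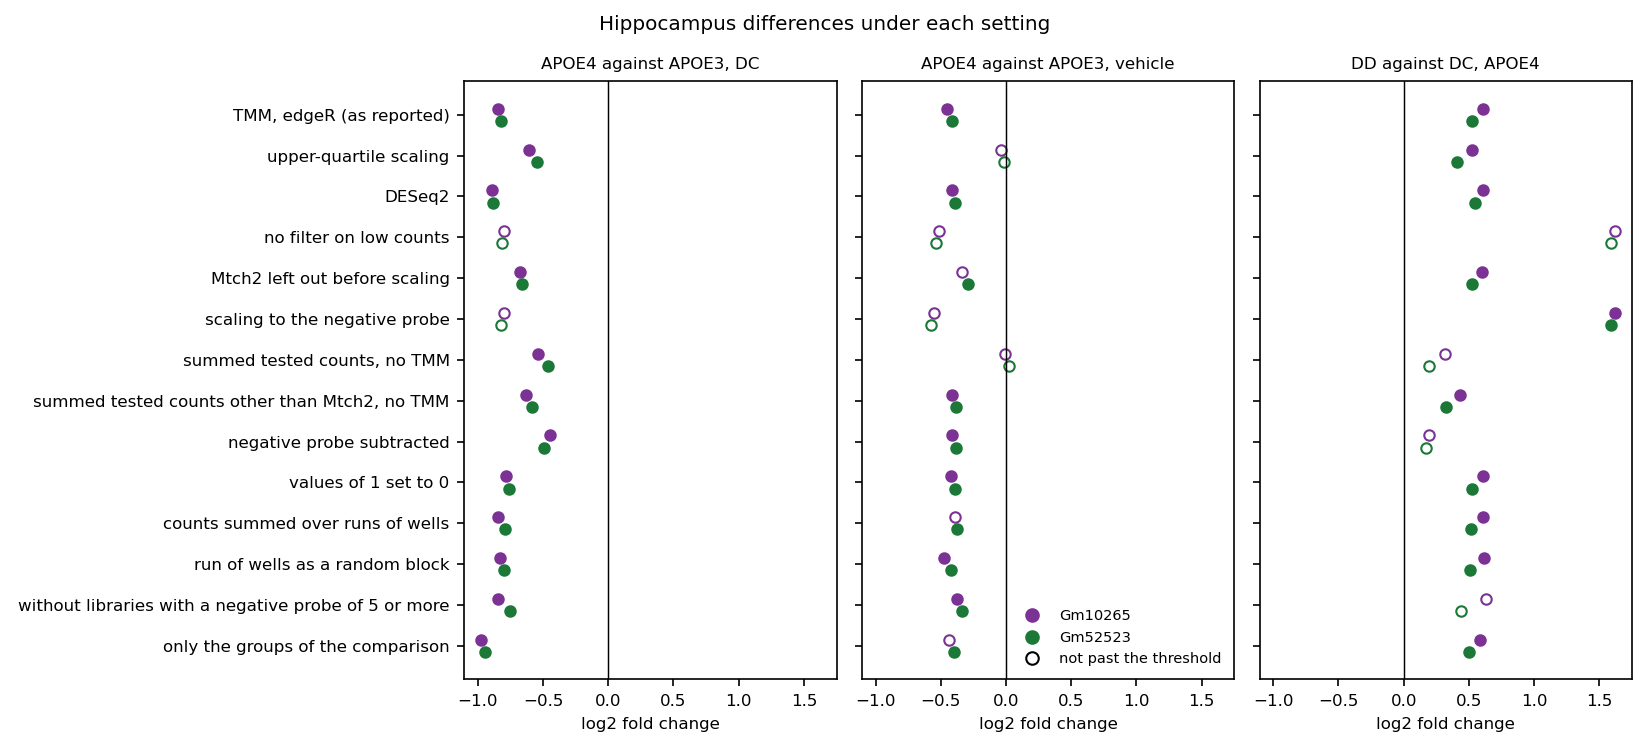
Log2 fold changes in hippocampus for the 3 comparisons that Gm10265 and Gm52523 passed, under the reported fit (top) and 13 other settings; open points did not pass. The DC comparison lies between -0.97 and -0.45 under every setting, and the DD against DC values spread between 0.17 and 1.62. Without TMM on the sum of all tested counts, the vehicle comparison moves to -0.004 for Gm10265 and 0.02 for Gm52523. With Mtch2 out of that sum it is at -0.41 and -0.38.

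The proportion of Gm52523 to Gm10265 counts was followed over groups and single libraries. Group medians span less than single libraries by construction, so the 2 ranges are not compared. Gm52523 was counted 54.1 times per 100 counts of Gm10265 in the median library, and the 12 group medians lay between 51.7 in APOE3 vehicle hippocampus and 61.4 in APOE4 vehicle cortex. Single libraries lay between 34.9 and 85.7, and the coefficient of variation over 97 libraries was 17.9% (up to 26.1% within a group). The cortex and hippocampus medians were 56.3 and 52.9, while the shares of the 2 genes differed 2.77-fold and 2.92-fold between the regions. Both genes were chosen for a larger share in cortex, so a similar proportion in the 2 regions follows largely from that choice. A proportion of 2 counts of 1 library does not depend on how libraries are scaled. Group medians of Gm10265 per 100 counts of Mtch2 ran between 8.22 and 87.2. Mtch2 took a larger share in hippocampus than in cortex, so a wide range was built into this comparison. Gm40755 kept a looser proportion, with group medians between 8.86 and 13.6 per 100 counts of Gm10265 and a coefficient of variation of 43.5%. The highest group median was in APOE4 DC hippocampus, where the negative probe stood at 5 or more in 6 of 8 libraries. The parts of low counts and of background in this spread were not tested.

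**Figure D4:**
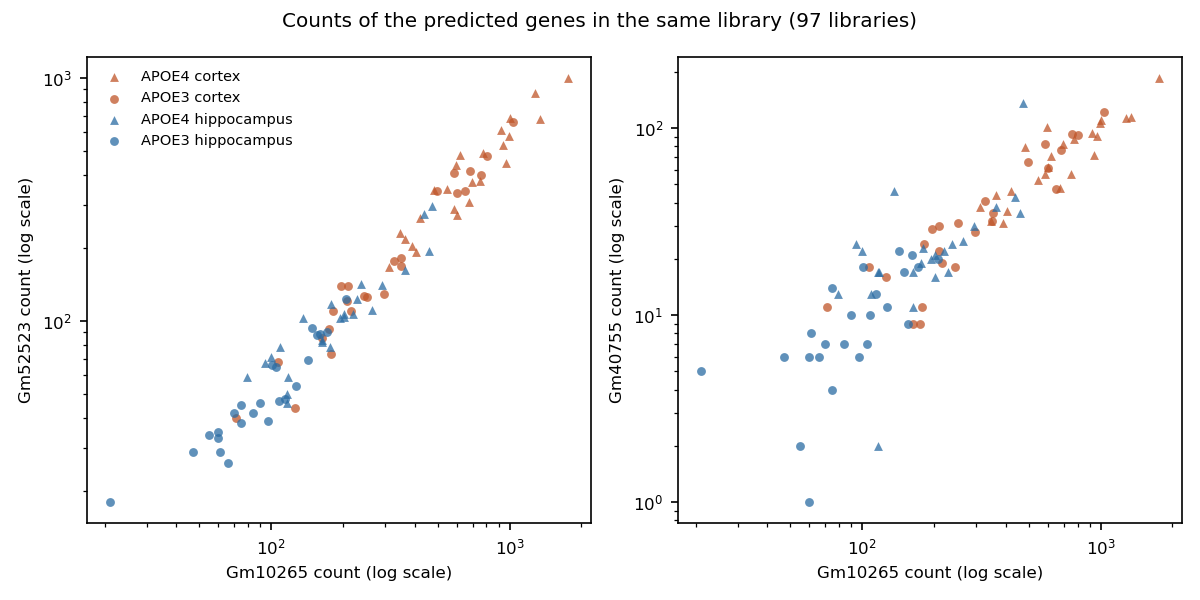
Counts of Gm52523 (left) and Gm40755 (right) against Gm10265 in the same library, both axes logarithmic, for 97 libraries by genotype and region. Gm52523 rises with Gm10265 from 21 to 1759 counts of Gm10265, and Gm40755 scatters most below about 20 of its own counts.

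Over the 12 group means of log2 CPM, and among the other 36 genes tested in both regions, Gm52523 was the gene most like Gm10265 (Pearson r = 0.995; 0.889 over the 6 cortex groups and 0.989 over the 6 hippocampus groups). The groups share their libraries and scaling, and the 3 genes were chosen for a cortex excess over these same groups, which by itself raises the r over all 12 among them, so this is a description. Trir, which encodes an RNase linked to telomerase RNA, came next for Gm10265 at 0.914 and for Gm52523 at 0.927, followed by Cd99, a cell-surface glycoprotein, at 0.911 and 0.916. Within the cortex groups the r with Trir was 0.930 for Gm10265 and 0.854 for Gm52523, and within the hippocampus groups 0.0854 and 0.00467. With Cd99 the order was the other way, at 0.0863 and 0.0858 within cortex and 0.637 and 0.609 within hippocampus. For Gm40755 the most alike were Rrp36, a ribosomal RNA processing factor, at 0.975, then Trir at 0.921 and Gm52523 at 0.915. Of these, Rrp36 kept a positive r within both regions (0.597 in cortex and 0.969 in hippocampus), while Trir gave -0.02 and -0.52 and Gm52523 -0.25 and 0.36.

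Libraries in neighbouring wells of one group, whose animals the labels do not give, gave a measure of close repeats. The median difference within such a pair was 0.17 (log2) for Gm10265 in either region, 0.22 in cortex and 0.20 in hippocampus for Gm52523, and 0.23 in cortex and 0.52 in hippocampus for Gm40755. The largest was 2.27, for Gm40755 in hippocampus.

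Most other predicted genes were too low to test. Of the 518 others on the panel, 5 passed the filter in cortex (Gm33888, Gm46840, Gm34733, Gm52782 and Gm9758) and the first 3 of these in hippocampus. Under DC in hippocampus 0 of these 3 differed between genotypes in edgeR, with a median log2 of 0.01. Under vehicle 1 did, Gm46840, which was higher in APOE4 hippocampus (log2 0.55, SE 0.20, edgeR adjusted p = 0.0212), the direction opposite to that of Gm10265 and Gm52523. It was higher in APOE4 vehicle cortex also (log2 0.67, SE 0.17, edgeR adjusted p = 0.00231).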

How the data were processed

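GeoMx Whole Transcriptome Atlas libraries were, per the labels' protocols, sequenced on the Illumina NovaSeq platform. The genome build is mm10 per the submitters' processing notes, and the counting software is not given in the sources used here. What the authors deposited are expected counts of 19962 genes and 1 negative probe, unscaled. They are whole numbers in all but 4 rows, and the lowest value was 1 in 94 of 97 libraries. Values were rounded to whole numbers. Groups follow the labelled genotype, treatment and region, and the captured region was the unit.

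In each region, genes passing filterByExpr (minimum count 10) were scaled by TMM and all 6 groups tested in edgeR 4.0.16 under R 4.3.3. The test was the quasi-likelihood F test, with p-values adjusted by Benjamini-Hochberg and a threshold of 0.05. Standard errors come from the F statistic, and log2 CPM used a prior count of 2. Shares are percentages of the counts of the 37 genes tested in both regions. The fit was checked on simulated data. The 3 genes, the gene lists and the comparisons were chosen with earlier results of these data known. The genes named are these 3, the 3 most like each by Pearson r, Mtch2, the negative probe and the other predicted genes that passed the filter. Names and coordinates came from RefSeq's GRCm38.p6 table, which held 517 of the panel's 521 predicted genes. The 11 alternatives planned included upper-quartile scaling, DESeq2 1.42.0, no filter on low counts, handling of the negative probe, and pairs of neighbouring wells summed or as a random block in limma 3.58.1. A further 2, without TMM, were added after the data were seen, and each library was also left out in turn.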

Additional observations from a re-analysis of the deposited data

Results flagged for a closer look

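Of 36 sets of shares, 1 per gene and group, 3 held a library far from the rest of its group. Chance gives such a library in about 1 in 20 sets. In APOE3 DD cortex, the lowest Gm52523 share was 5.428%, against a group median of 8.42%. In APOE3 DD hippocampus, the highest Gm52523 share was 4.397%, against a median of 2.89%. In the same group, the lowest Gm40755 share was 0.08183%, a single count, against a median of 0.650%.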

How the results depend on the processing

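No paired analysis was possible because the labels give no replicate numbers. The genotype calls, 4 of 18, became 2 with upper-quartile scaling, 2 without TMM on the sum of all tested counts (4 with Mtch2 out of the sum), and 0 with no filter on low counts or with scaling to the negative probe. The DD against DC calls, 2 of 12, became 0 with no filter, without TMM on the sum of all tested counts (2 with Mtch2 out of the sum), with the negative probe subtracted and without libraries at a negative probe of 5 or more. The DC against vehicle calls, 0 of 12, became 1 with upper-quartile scaling, 2 with DESeq2, 3 with scaling to the negative probe, 4 without TMM (0 with Mtch2 out of the sum) and 2 without those libraries. The DD against vehicle calls, 0 of 12, became 1 without TMM, which was Gm52523 in APOE3 hippocampus with Mtch2 in the sum (adjusted p = 0.0450) and Gm52523 in APOE4 hippocampus with it out (adjusted p = 0.0466). With single libraries left out, these treatment counts and that of the interaction each ran between 0.0 and 1.0 (DD against vehicle without APOE4 vehicle hippocampus replicate 6, the interaction without APOE4 DC hippocampus replicate 3 or APOE3 DC hippocampus replicate 8, DC against vehicle without 6 different hippocampus libraries). The 6 calls themselves were kept in 48 of 48 hippocampus fits that left out 1 library.

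The log2 ratio of cortex over hippocampus was 1.47 for Gm10265, and 1.0 without Mtch2, 1.78 over the negative probe, 1.74 of the total count and 1.68 of counts above 1. For Gm52523 it was 1.54, and 1.08, 1.90 and 1.86 in the first 3 of these settings; for Gm40755 it was 1.36, and 0.93, 1.81 and 1.76.

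Values that changed sign were nearly all past the threshold in neither setting. Gm52523 in APOE4 against APOE3 vehicle hippocampus gave 0.0249 without TMM, which in this paragraph is on the sum of all tested counts. Gm10265 in DC against vehicle gave -0.0336 with no filter, -0.22 with scaling to the negative probe and -0.0429 over summed wells in APOE3 cortex, -0.86 and -0.85 with the first 2 settings in APOE3 hippocampus, where left-out libraries gave -0.0305 to 0.15, and 0.0918 without TMM and 0.0706 with the probe subtracted in APOE4 hippocampus. Gm52523 in DC against vehicle gave -0.83 with no filter and -0.81 with scaling to the probe in APOE3 hippocampus, and 0.21 without TMM and 0.0615 with the probe subtracted in APOE4 hippocampus. In DD against vehicle in APOE3 hippocampus it gave -0.32, -0.31 and -0.0444 with no filter, with scaling to the probe and over summed wells, with left-out libraries at -0.0213 to 0.12. Gm40755 gave 0.0545 in APOE4 against APOE3 vehicle cortex with no filter. In APOE4 hippocampus, Gm40755 in DC against vehicle gave -1.06 with no filter, -1.04 with scaling to the probe (adjusted p = 0.0348), -0.22 with it subtracted and -0.19 without libraries of 5 or more, and in DD against DC 1.13, 1.16 (adjusted p = 0.00858) and 0.10 in the first 3 of these settings. Without TMM, Gm40755 in DC against vehicle in APOE4 hippocampus kept the sign of the reported fit and passed (0.74, edgeR adjusted p = 0.0260). It thus passed in either direction, depending on the scaling. The cause of the sign changes was not tested. Gm40755 had a median of 24 counts, and the negative probe stood at 5 or more in 6 of 8 APOE4 DC hippocampus libraries. The scaling rests on 57 genes in cortex and 38 in hippocampus.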
